A study of Mus musculus with 2 samples.

Results

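Langerhans-like cells are dendritic cells of the skin surface that carry langerin (Cd207), the adhesion molecule Epcam and the MHC class II chain H2-Aa. Here they were picked by counts of unique molecular identifiers (UMIs, each standing for 1 captured RNA molecule) of 3 genes. Cells entered the search with 500 or more UMIs, 300 or more genes detected, and no more than 15% of UMIs from mitochondrial genes. A Langerhans-like cell then needed at least 2 Cd207, 10 H2-Aa and 1 Epcam UMIs, fewer than 2 UMIs of Xcr1 and Clec9a together, and fewer than 2 of Cd3d, Cd3e and Cd3g together. This rule found 179 of 24649 cells, 111 of 11443 in the control library WT_LW and 68 of 13206 in the treated library TLR9agonist_LW. The values of the genes in the rule therefore chose the cells, and are described here without weight as findings.

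Both libraries came from wild-type male C57BL/6J young adult mice with 1 circular dorsal skin wound 1.8 cm across. WT_LW wounds were given PBS on days 0, 3 and 6. TLR9agonist_LW wounds were given ODN2395, a CpG oligonucleotide that activates the DNA sensor TLR9, on the same days. The wound centre was collected 2 days after the scab fell off, cells of several mice were pooled, and 1 library was made per group. Treatment, the pooled mice and the cell preparation therefore cannot be told apart, no test between the groups was possible, and every interval below covers counting error only.

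Langerhans cells live between the keratinocytes of the epidermis, held there by contacts that include E-cadherin, and their maintenance depends on the receptor Csf1r and on TGF-beta. Langerin is a C-type lectin that takes up microbial sugars and builds Birbeck granules. Activated Langerhans cells lower their adhesion to keratinocytes, raise the chemokine receptor Ccr7, leave along lymphatic vessels and present antigen to T cells in the lymph node. TLR9 is an endosomal receptor that signals through Myd88 to NF-kB and interferon regulatory factors. Langerin is also made by type 1 dendritic cells of the dermis, and the rule left out cells with their markers Xcr1 and Clec9a.

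Langerhans-like cells were 0.970% of the cells of WT_LW (95% Clopper-Pearson interval 0.799 to 1.17) and 0.515% of those of TLR9agonist_LW (0.400 to 0.652). The log2 ratio of the shares was −0.91 (−1.37 to −0.47). Of the cells with at least 10 H2-Aa UMIs, 5.80% of 1915 (4.79 to 6.94) and 4.45% of 1528 (3.47 to 5.61) were Langerhans-like, and these intervals overlapped. The Epcam threshold set much of the gap. Without it, the cells numbered 141 and 119, which was 7.36% and 7.79% of the H2-Aa cells. Of these, 78.7% (71.0 to 85.2) in WT_LW and 57.1% (47.7 to 66.2) in TLR9agonist_LW carried an Epcam UMI.

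At the edges of the rule, 17 cells of WT_LW and 10 of TLR9agonist_LW had 1 Cd207 UMI and met every other condition, while 8 and 4 cells were just inside with 2 or 3. Another 30 and 51 cells were outside only for want of Epcam, with a median of 4 and 11 Cd207 UMIs. Just inside, with 1 Epcam UMI, lay 6 and 20 cells. For H2-Aa, 1 cell and 0 cells lay outside with 5 to 9 UMIs, and 1 and 2 cells inside with 10 to 19. The edge was thus crowded for Epcam and nearly empty for H2-Aa. The T cell markers removed 20 and 10 cells, and the type 1 markers 3 and 6.

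The gated cells held 1646477 UMIs in WT_LW and 1029999 in TLR9agonist_LW, with medians of 13879 and 12722.5 UMIs and 3194 and 2707.5 genes per cell. Median mitochondrial shares were 2.52% and 2.00%. Levels below are CPM, counts per 1000000, taken over all UMIs of the gated cells of a library. Log2 ratios compare TLR9agonist_LW with WT_LW and are given relative to the median gene, whose own log2 ratio was −0.32 over the 5275 genes with at least 50 UMIs in the gate. A gene is called higher or lower when this relative log2 ratio passed 1 or −1, a change of 2-fold. By this rule 578 genes (11%) were higher and 576 (10.9%) lower, and these shares are the background for every count of genes below.

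Cd207 reached a median of 15 UMIs per cell in WT_LW (range 2 to 100) and 35.5 in TLR9agonist_LW (2 to 382). Its level was 1347 CPM and 4355 CPM, a relative log2 ratio of 2.02 (1.94 to 2.09). Epcam went the other way, with a median of 12 UMIs per cell (1 to 49) against 3 (1 to 19). Its level was 867 and 258 CPM, a relative log2 ratio of −1.42 (−1.62 to −1.23). The rule's lower limit of 1 UMI keeps cells without Epcam out of this ratio. With the Epcam condition dropped, that ratio was −1.88. H2-Aa lay close in both libraries, at 8685 and 7527 CPM. In the 3 other dendritic gates pooled (60 and 40 type 1, 49 and 64 migratory and 242 and 142 Cd209a dendritic cells) Cd207 stood at 44.2 and 175 CPM, and in a gate of T cells at 4.28 and 30.2 CPM. Cd207 UMIs were thus more frequent in the treated library outside the gated cells too.

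**Figure D1:**
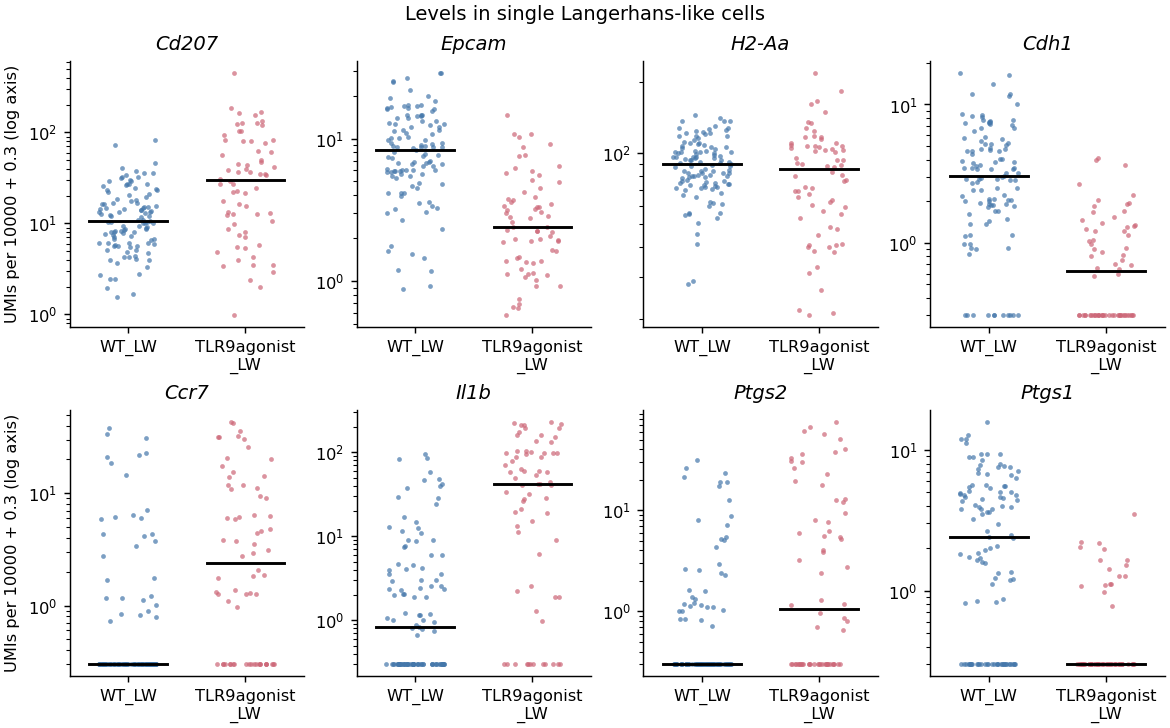
Each point is 1 Langerhans-like cell (111 of WT_LW, 68 of TLR9agonist_LW), the y axis gives its UMIs of the named gene per 10000 UMIs plus 0.3 on a log axis, and black lines are medians. Cd207, Ccr7, Il1b and Ptgs2 have higher medians in TLR9agonist_LW, Epcam, Cdh1 and Ptgs1 lower ones, and the clouds of the libraries overlap for every gene.

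The label was set beside some Langerhans genes that the rule did not use. Mfge8, Cdh1 and Cd24a were among the markers set for this, and Cldn1 and Csf1r came from the wider identity list. Levels of the other set markers, Ly75, Cd74 and Itgax, in the other dendritic gates are not given here, so the check is partial. Mfge8, a bridge for the uptake of dying cells, had 3908 and 2435 CPM in the gated cells against 222 and 276 CPM in the other dendritic gates pooled and 1301 and 748 CPM in the migratory gate alone. Cldn1, a tight junction protein, had 299 and 357 CPM against 47.5 and 90.3. Csf1r had 509 and 172 CPM against 135 and 56.8. Those 3 genes were higher in the gated cells than in the other dendritic gates in both libraries. Cdh1, which encodes E-cadherin, did so in WT_LW (327 against 106 CPM), but in TLR9agonist_LW its level was 70.9 against 61.6 CPM. Cd24a, a sialoglycoprotein of Langerhans cells, was likewise higher than in the other gates in WT_LW (232 against 105 CPM) and lower in TLR9agonist_LW (82.5 against 108). The gated cells of TLR9agonist_LW thus stood above the other dendritic gates in Mfge8, Cldn1 and Csf1r, only slightly above them in Cdh1, and below them in Cd24a.

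Ranking genes by their ratio over the other dendritic gates, in the library where that ratio was lower, gave 20 genes, among which Cd207 and Epcam came from the rule itself. The amino acid transporter Slc36a2 had 75.9 and 34.0 CPM in Langerhans-like cells against 0.826 and 0.287 in the other gates. The MHC class I-like gene H2-M5 had 60.7 and 9.71 CPM against 0.413 and 0.287. The ATP-gated channel P2rx2 had 56.5 and 7.77 CPM, against 1.65 CPM in WT_LW and no UMI in TLR9agonist_LW. Tspan8, a tetraspanin, had 52.8 and 14.6 CPM against 1.24 and 0.860. These 4 genes were at or under 1.65 CPM in the other dendritic gates pooled, and all but Slc36a2 were called lower in Langerhans-like cells of the treated library, with relative log2 ratios of −2.54 for P2rx2, −2.32 for H2-M5 and −1.54 for Tspan8, while Slc36a2 stood at −0.84. Lpar3, a receptor for lysophosphatidic acid, had 85.6 and 13.6 CPM, and the signalling kinase Prkcb 209 and 66.0 CPM. Of the 20 genes, Cd207 and Plek2 (115 and 193 CPM, 1.07, a call lost under 4 of the other settings) were called higher and 13 were called lower. The minimum of 100 UMIs for this ranking was summed over both libraries, and WT_LW held more of the gated UMIs. Some genes passed it mostly through WT_LW, such as P2rx2 (93 and 8 UMIs), Tspan8 (87 and 15) and H2-M5 (100 and 10). The count called lower is thus partly set by that minimum. Xlr belongs to a family of near-identical copies, so its count is uncertain.

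**Figure D2:**
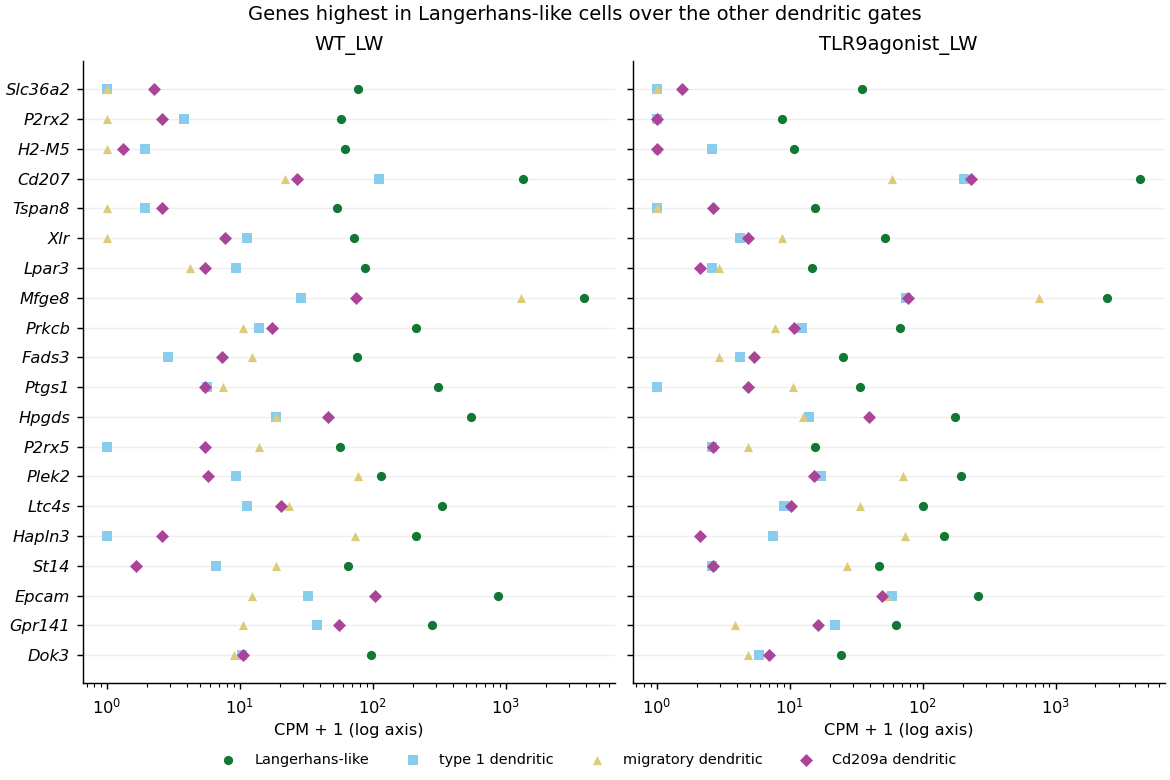
Levels of the 20 genes with the highest ratio in Langerhans-like cells over the other dendritic gates, as CPM plus 1 on a log axis, in WT_LW (left) and TLR9agonist_LW (right). Green circles are Langerhans-like cells and the other symbols the 3 other dendritic gates. The circles lie to the right of every other symbol in both libraries, and for Ptgs1 they drop from 306 to 33 CPM.

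Of 20 genes on a Langerhans identity list, 19 were counted. Cd207 and Id2 were higher and 6 were lower (Epcam, Cd24a, Cdh1, Csf1r, Sirpa and Itgam), with a median relative log2 ratio of −0.19 against 0 for all genes by construction. Cdh1 fell to a relative log2 ratio of −1.88 (−2.25 to −1.53), and cells with a Cdh1 UMI went from 90.1% to 52.9%. In cells thinned to 2000 UMIs each, which left 110 and 66 cells, that share was 45.5% and 9.09%, against 4.86% and 2.46% in T cells. Csf1r, the receptor for IL-34 and CSF1, fell by 1.24 (−1.49 to −1.01), from a median of 6 to 2 UMIs per cell. Its thinned share of cells was 59.1% and 27.3%, against 2.27% and 1.23% in T cells with median depths of 4292 and 4483 UMIs. Id2, a regulator needed for Langerhans cells, was at 346 and 559 CPM (1.02), a call lost under 6 of the 13 other settings, and that of the integrin chain Itgam (−1.12) was lost under 6 as well. Sirpa stood at −0.59 without the Epcam condition. Runx3, a transcription factor needed for these cells, had 281 and 196 CPM (−0.19) and was not called. The receptors for TGF-beta, Tgfbr1 and Tgfbr2, stood at −0.27 and −0.18.

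Several other contact molecules of epidermal cells fell beside Cdh1 and Epcam. On a list of adhesion and exit genes, with 22 counted, 3 were higher and 5 lower, with a median of 0.15. F11r, the junctional adhesion molecule A, had 87.5 and 24.3 CPM (−1.53). The integrin chain Itgae, which binds E-cadherin, had 121 and 35.9 CPM (−1.43), and Itga6, a chain of the basement membrane integrin, 54 and 5 UMIs (−2.43), found in 7.21% and 5.88% of cells. Without high doublet scores Itga6 stood at −0.24 and lost its call. Within the same list, Ctnna1, which ties cadherins to the cytoskeleton, had 406 and 496 CPM (0.61), and Cldn1 stood at 0.58. Both stayed below the 2-fold limit. Among the genes called higher were Mmp2, a matrix protease with 596 and 569 CPM in fibroblasts, and the integrin chain Itgav, which stood at 0.93 without the cells rich in RNA of other classes (below).

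The MHC class II chains stayed near the median gene, while H2-DMa, which acts in peptide loading, fell. Of 15 genes of this pathway, Lgmn was higher, H2-DMa and Ciita were lower, and the median was −0.39. H2-Aa stood at 0.12, H2-Eb1 at −0.01 and the invariant chain Cd74 (22022 and 18193 CPM) at 0.05, and H2-Ab1 had 11735 and 7167 CPM (−0.39). H2-DMa, a chain of the H2-DM exchanger that loads peptides, had 1111 and 339 CPM, a relative log2 ratio of −1.39 (−1.56 to −1.22), and a median of 15 against 4 UMIs per cell. Its partners H2-DMb1 and H2-DMb2 stood at −0.60 and −0.65. The class II transactivator Ciita had 92.9 and 31.1 CPM (−1.26). In the other dendritic gates H2-DMa had 867 and 376 CPM and Ciita 58.2 and 26.4 CPM. The protease Lgmn had 74.1 and 212 CPM (1.84), and the cathepsin Ctss 1040 and 615 CPM (−0.44). With the cells rich in RNA of other classes left out (below), Ciita stood at −0.84 and lost its call. For MHC class I, with 15 genes counted, the peptide transporter genes Tap1 (88.7 and 24.3 CPM, −1.55) and Tap2 (−1.22) were lower and none was higher, with a median of −0.29.

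Of 28 maturation and migration genes, 21 were counted. Among these, 10 were higher and 1 was lower, with a median of 0.84. Ccr7, the receptor for chemokines of lymphatic vessels, had 233 and 750 CPM, a relative log2 ratio of 2.01 (1.83 to 2.19). A Ccr7 UMI was found in 31 of 111 cells (27.9%) and 46 of 68 cells (67.6%). Thinned, the shares were 13.6% (7.84 to 21.5) and 48.5% (36.0 to 61.1). Fibroblasts, which should lack Ccr7, had 1.11% and 0.951% at median depths of 11718.5 and 12651.5 UMIs, so the Langerhans-like shares were above what free RNA gave there. Ligands of the checkpoint receptor PD-1 were higher, Cd274 with 15.2 and 68.0 CPM (2.49) and Pdcd1lg2 with 13.4 and 39.8 CPM (1.90). Socs2, a brake on cytokine signalling, had 17.0 and 54.4 CPM (2.00), and the adaptor Samsn1 81.4 and 252 CPM (1.96). Calls of these 5 genes held under every one of the 13 other settings. Traf1 and Birc3, which act downstream of TNF receptors, had 355 and 616 CPM (1.12) and 41.3 and 87.4 CPM (1.40). Traf1 lost its call under 4 of the other settings and Birc3 after thinning (0.64). Relb, an NF-kB subunit of mature dendritic cells, had 63.2 and 113 CPM (1.16) and lost its call without the Epcam condition (0.94).

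Several classical maturation genes did not pass the limit. The costimulatory molecules Cd86 (316 and 440 CPM, 0.80), Cd80 (0.72) and Cd40 (56.5 and 66.0 CPM, 0.55) lay above the median gene. Cd40 was at −1.35 after thinning, which left it few UMIs. Of the T cell attracting chemokines, Ccl22 had 377 and 471 CPM (0.65) and Ccl17 112 and 160 CPM (0.84). For Ccl17, 1 cell held 50% of the UMIs in WT_LW and 1 cell 38.8% in TLR9agonist_LW, and the ratio turned to −1.66 with thresholds per 10000 UMIs. Cd83 stood at 0.29. Fscn1, the actin bundler of mature dendritic cells, had 61.3 and 33 CPM (−0.57, −1.18 to 0.00) and turned to 0.57 without the Epcam condition, and Marcksl1 198 and 104 CPM (−0.61). Migratory dendritic cells of the same libraries, gated on Ccr7 and Fscn1, had 3001 and 1620 CPM of Ccr7, 1971 and 1059 of Fscn1, 2885 and 1002 of Ccl22 and 505 and 254 of Socs2. Ccr7 of the treated Langerhans-like cells was thus closer to these cells than in WT_LW, while Ccr7 of the migratory cells was itself lower in TLR9agonist_LW.

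**Figure D3:**
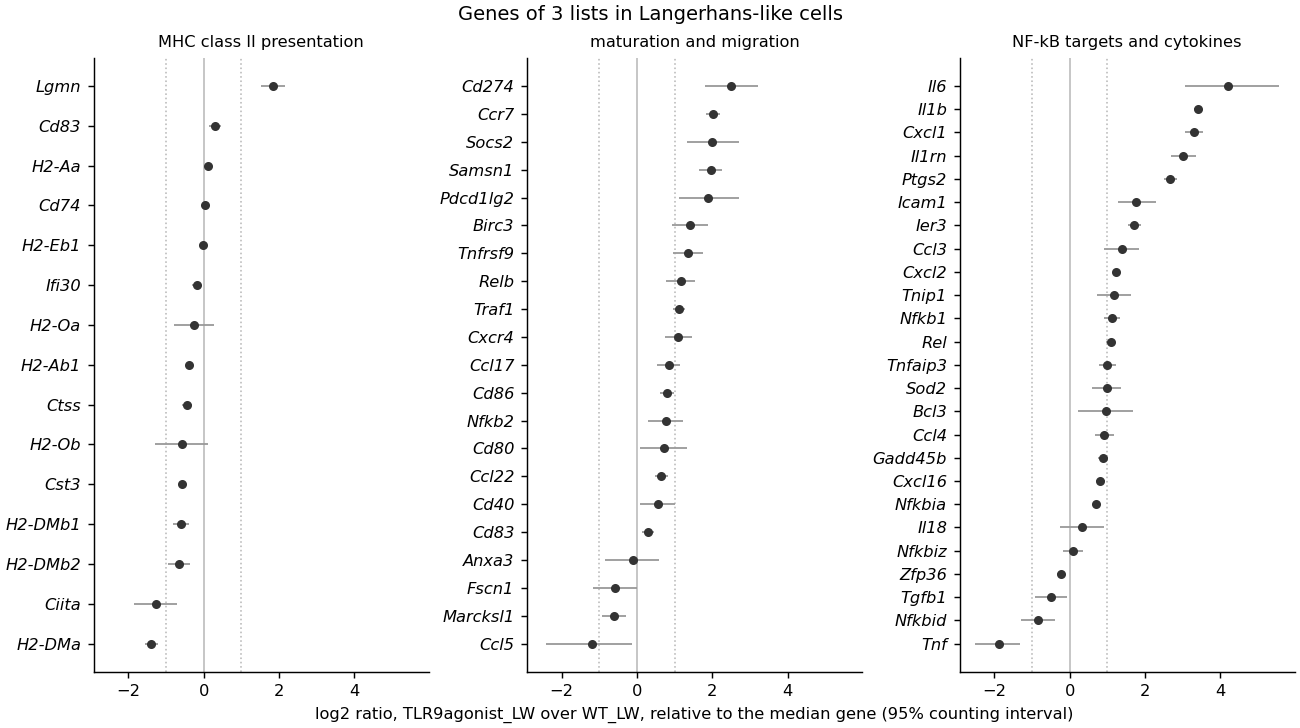
Relative log2 ratios, TLR9agonist_LW over WT_LW, for the counted genes of 3 lists in Langerhans-like cells. Points are ratios relative to the median gene, bars 95% counting intervals and dotted lines the 2-fold limits. In the maturation and NF-kB panels 10 and 12 genes lie right of the upper limit, and in the MHC class II panel only Lgmn does.

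Cells were also split by their own Ccr7 count, as a description of cells chosen on that count. Cells with no Ccr7 UMI were 80 (72.1%) in WT_LW and 22 (32.4%) in TLR9agonist_LW, and cells with 3 or more were 18 (16.2%) and 36 (52.9%). The libraries differed within both classes. In cells without Ccr7, Cd207 had 1338 and 3723 CPM, Epcam 929 and 252, Cdh1 366 and 83.9, and Il1b 389 and 1538. In cells with 3 or more Ccr7 UMIs, Cd207 had 1312 and 4252 CPM, Epcam 618 and 243, and Il1b 2563 and 9252. The level of Cd207 in WT_LW hardly moved with Ccr7, while Epcam was lower and Il1b higher in the cells rich in Ccr7. Ccl22 was higher with Ccr7 in both libraries, from 99.6 and 52.8 CPM in cells without it. Ccl22 and Fscn1 were lower in the treated cells with 3 or more Ccr7 UMIs, with 1594 and 811 CPM for Ccl22 and 297 and 45.9 for Fscn1. In WT_LW, 3 of these cells, with 35, 28 and 19 UMIs, gave all but 1 of the Fscn1 UMIs, and 4 cells gave most of the Ccl22 UMIs, so both differences rest on few cells. Socs2 had 28.6 and 90.0 CPM there.

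**Figure D4:**
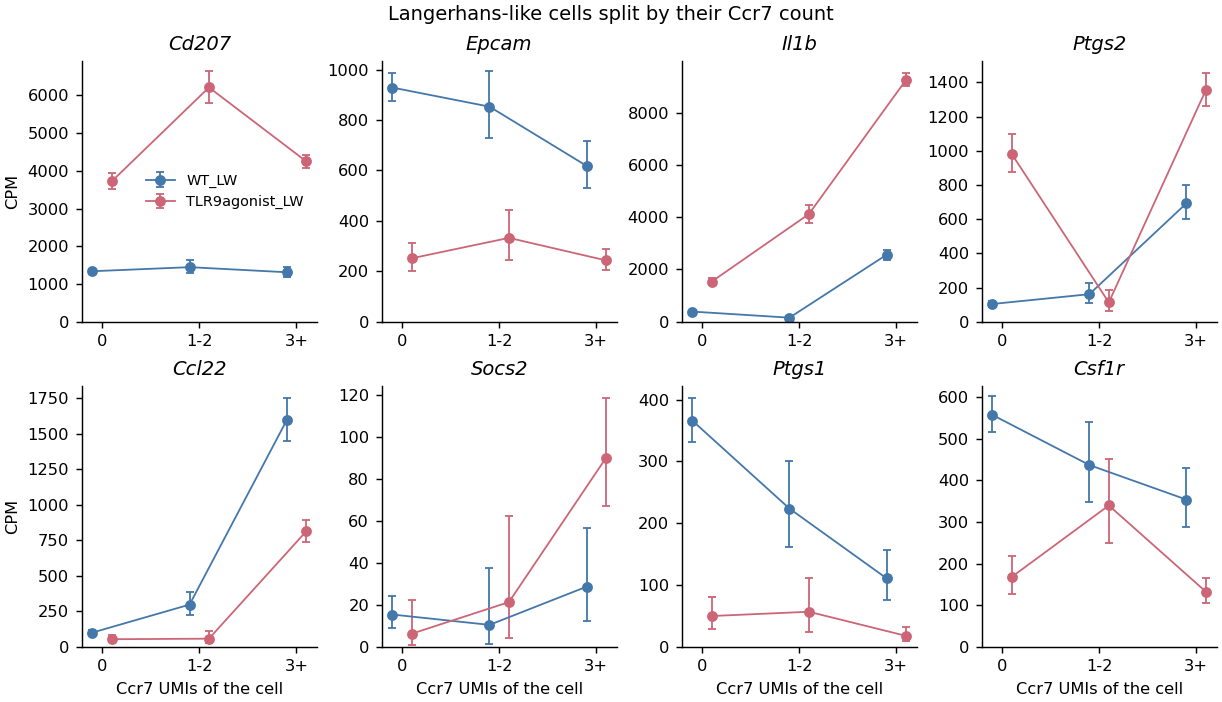
Levels in CPM of 8 genes in Langerhans-like cells with 0, 1 to 2, or 3 or more Ccr7 UMIs, with bars for exact Poisson 95% intervals and 1 colour per library. Cd207 and Il1b are higher and Epcam and Ptgs1 lower in TLR9agonist_LW in all 3 classes.

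Among 25 counted NF-kB targets and cytokines, 12 were higher and 1 was lower, against 11% and 10.9% of all genes, with a median of 1.0. Il1b, which encodes interleukin-1 beta, rose from 731 to 6139 CPM, a relative log2 ratio of 3.39 (3.30 to 3.48). Its median was 1 UMI per cell in WT_LW (range 0 to 138) and 54.5 in TLR9agonist_LW (0 to 468). Thinned, 26.4% and 75.8% of cells had an Il1b UMI, against 6.81% and 7.11% of fibroblasts and 8.78% and 15.6% of T cells. Fibroblasts and T cells differed far less between the libraries than Langerhans-like cells did. The other dendritic gates had 2452 and 5018 CPM. Il1rn, the natural blocker of the interleukin-1 receptor, rose from 57.7 to 370 CPM (3.00, 2.68 to 3.34). Its thinned share was 2.73% and 30.3% of cells, against 9.17% and 29.7% of keratinocytes, where it was also higher in TLR9agonist_LW. Ptgs2, the inducible cyclooxygenase, rose from 211 to 1069 CPM (2.67, 2.49 to 2.84), and the thinned share of cells with it was 17.3% and 39.4%, against 13.7% and 24.7% of fibroblasts. The neutrophil attractant Cxcl2 rose from 3822 to 7179 CPM (1.23), with 625 and 2239 CPM in T cells and 631 and 1850 in fibroblasts. Ier3, a survival gene, rose from 292 to 766 CPM (1.71), and fibroblasts had 382 and 709 CPM. Nfkb1 and Rel, both NF-kB subunits, had 220 and 383 CPM (1.12) and 556 and 943 CPM (1.08). Without the centring on the median gene, Cxcl2, Nfkb1 and Rel stayed under the limit (0.91, 0.79 and 0.76), and Nfkb1 and Rel were under it in 4 of the other settings each.

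Tnf, which encodes tumour necrosis factor, was the list's gene that fell, from 126 to 27.2 CPM (−1.89, −2.51 to −1.31), with 52.3% and 22.1% of cells having a UMI. T cells had 73.7 and 98.0 CPM of Tnf. Without the Epcam condition the ratio was −0.86 and not called. Feedback inhibitors of NF-kB were uneven, with Tnip1 called higher (1.17, and 0.97 without the Epcam condition), Nfkbia at 1289 and 1684 CPM (0.71) and Nfkbid at 115 and 51.5 CPM (−0.83). Some raised genes were carried by few cells or stood below other cell types. Cxcl1 rose from 107 to 838 CPM (3.29), and its thinned share of 9.09% and 24.2% lay below the 12.6% and 34.0% of T cells. In TLR9agonist_LW 29.8% of its UMIs came from 1 cell, and the 3 highest cells had 90.3, 56.7 and 49.8 Cxcl1 UMIs per 10000, so the level was carried by few cells while the median cell had 1 UMI. Il6 had 7 and 64 UMIs, of which 60.9% in TLR9agonist_LW were in 1 cell, and stood at 0.77 after thinning. Icam1 (1.77), with 39.4% of its UMIs in 1 cell, was at 0.62 and not called once cells rich in RNA of other classes were left out.

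Promoters show where the letters of an NF-kB site lie near some of these genes. The motif read GGG, any 2 bases, then TTTCC, as 1 run of 10 letters, and was searched on both strands, overlaps allowed, of the 250 bases before each start in RefSeq (GRCm38.p6), where 464 of 32851 windows (1.41%) held it. Of the 46 counted genes of the maturation and NF-kB lists, 34 had a promoter there and 9 held a match. A gene counted as matched if any of its windows held the motif, and some genes, such as Nfkb2 and Il1rn, had several. The lists were also made of NF-kB targets and maturation genes, so the share of all windows is not a like background for these gene counts. Of 18 that were called higher and had a promoter, 6 held a match (Cxcl1, Cxcl2, Il6, Il1rn, Tnfrsf9 and Rel). Shown are those of Cxcl2, Il1rn and Rel, which rose and had more CPM in the gated cells than in fibroblasts or T cells. For Il1rn this did not hold by thinned share in WT_LW, with 2.73% of gated cells against 3.93% of T cells. Each is read along its gene with the match in capitals. A match in these letters is a description and not a bound site, and other starts of Il1rn held none.
Cxcl2 (chr5:90903649-90903898, plus strand): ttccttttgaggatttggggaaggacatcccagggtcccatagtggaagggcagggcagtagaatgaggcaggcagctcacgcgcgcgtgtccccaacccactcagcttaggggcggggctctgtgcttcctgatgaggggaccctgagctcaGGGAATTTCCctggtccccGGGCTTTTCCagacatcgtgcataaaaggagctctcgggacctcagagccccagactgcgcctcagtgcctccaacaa
Il1rn (chr2:24345121-24345370, plus strand): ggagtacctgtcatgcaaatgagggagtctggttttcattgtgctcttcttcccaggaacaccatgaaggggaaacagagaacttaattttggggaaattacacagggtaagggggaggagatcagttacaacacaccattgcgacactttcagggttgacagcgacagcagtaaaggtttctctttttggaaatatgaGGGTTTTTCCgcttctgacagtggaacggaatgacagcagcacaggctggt
Rel (chr11:23770970-23771219, minus strand, match on the opposite strand): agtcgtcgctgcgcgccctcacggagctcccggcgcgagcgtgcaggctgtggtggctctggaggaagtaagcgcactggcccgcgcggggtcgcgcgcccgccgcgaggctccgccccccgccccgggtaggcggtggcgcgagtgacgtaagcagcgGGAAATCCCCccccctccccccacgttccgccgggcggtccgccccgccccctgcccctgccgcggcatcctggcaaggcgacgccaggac

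TLR9 itself was hardly seen, with 3 UMIs in WT_LW and 0 in TLR9agonist_LW, and a count of 0 allows up to 2.91 CPM in the latter. Of 27 genes for Toll-like receptors and their adaptors, 10 were counted, 1 was higher and none lower, with a median of 0.08. The co-receptor Cd14 rose from 117 to 449 CPM (2.27, 2.02 to 2.52), against 56.8 and 41.7 CPM in T cells and 261 and 350 in the other dendritic gates. Tlr2 had 68.6 and 34.0 CPM (−0.69), Myd88 stood at 0.10 (−1.23 after thinning, on few UMIs) and the transcription factor Irf5 at 0.68.

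Genes of the interferon response were low and mixed, with 14 of 30 counted, 3 higher, 3 lower and a median of −0.18. Antiviral sensors and effectors called lower were Gbp7 (43.7 and 8.74 CPM, −2.0), Ifih1 (−1.81) and Ly6e (493 and 180 CPM, −1.13, and −0.89 without the Epcam condition). Isg15 had 46.8 and 54.4 CPM (0.54), and Irf7, which drives interferon genes below TLR9, 40 and 21 UMIs (0.07, and −1.17 with thresholds per 10000 UMIs). The chemokine Cxcl10 (1.61), the factor Irf1 (2.00) and Ifitm3 (1.16) were called higher. None of these 3 higher calls held without the cells rich in RNA of other classes, where Cxcl10 was at −0.64, Irf1 at 0.09 and Ifitm3 at 0.88. Fibroblasts of TLR9agonist_LW had 798 CPM of Cxcl10 and 280 CPM of Irf1, against 210 and 115 CPM in the gated cells.

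Of 20 transcription factors of the lineage, 7 were higher and none lower, with a median of 0.83. Prdm1 (Blimp-1) had 13 and 57 UMIs (3.13, 2.25 to 4.13), Cebpb 183 and 511 CPM (1.80) and Nr4a3, an orphan receptor tied to dendritic cell migration, 509 and 1085 CPM (1.42). Nr4a3 reached a median of 4 and 12 UMIs per cell. Maf (2.06) reversed to −0.29 when cells with high doublet scores were removed. The lineage factors Spi1 (289 and 239 CPM, 0.05), Irf8 (−0.10) and Irf4 (0.21) stayed near the median gene. The median of the list was −0.10 in cells thinned to 2000 UMIs, where 11 of its genes were counted.

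Signals between Langerhans cells and lymphocytes were mixed. Of 14 counted genes of T cell costimulation and inhibition, 4 were higher and 2 lower, with a median of 0.56. Lgals3, which encodes galectin-3, rose from 1896 to 4504 CPM (1.57, 1.51 to 1.64) and from a median of 18 to 61.5 UMIs per cell, against 2381 and 2502 CPM in the other dendritic gates. Il4i1, an amino acid oxidase that dampens T cells, had 21.9 and 74.8 CPM (2.10). Cd48, a ligand for 2B4 on lymphocytes, fell from 132 to 25.2 CPM (−2.06), and Ebi3, a cytokine subunit, from 50 to 11 UMIs (−1.18). Csf2rb, the shared chain of the receptors for GM-CSF and IL-3, rose from 584 to 1053 CPM (1.17), while its partner chain Csf2ra had 249 and 117 CPM (−0.76). Both belong to a list of TGF-beta and growth factor genes with 4 of 19 higher, 2 lower and a median of −0.18. Besides Csf2rb and Id2, its higher genes were Id3 (48.0 and 132 CPM, 1.78) and Smad4 (1.06), and the receptor Acvrl1 (−1.44) fell with Csf1r.

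Among 17 counted chemokines and their receptors, 9 were higher and 3 lower, with a median of 1.10. Besides Ccr7, the receptors Ccr1 (72.3 and 128 CPM, 1.15) and Cxcr4 (1.10) were higher, calls lost under 3 and 4 of the other settings, and Ccr2, which guides monocytes into tissue, fell from 55 to 4 UMIs (−2.78). Ccl3 (1.38) was called higher and lost its call without the Epcam condition (0.34). Ccl5 (41 and 9 UMIs, −1.19) and Ccl9 (50 and 9 UMIs, −1.47) were called lower. The call of Ccl5 was lost under 7 of the 13 other settings, and Ccl9 was at 0.45 without the Epcam condition. Ccl2 had 88.7 and 1094 CPM (3.95), but 38.0% of its UMIs in TLR9agonist_LW were in 1 cell, its thinned share (10.9% and 27.3%) lay near or below that of T cells (8.88% and 36.5%), and without cells rich in RNA of other classes it was at 0.77. Ccl8 (1.23) had 71.3 and 387 CPM in fibroblasts and stood at 0.80 without high doublet scores. Of 15 uptake and Fc receptors, Cd207 alone was called, and the median was 0.54.

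Cell cycle genes were low, with 16 counted, none higher and 5 lower (Top2a, Birc5, Nusap1, Tyms and Rrm2, −1.12 to −1.97), and a median of −0.83. Cells with 5 or more UMIs of Mki67, Top2a, Ccna2 and Cdk1 together numbered 13 (11.7%, 6.39 to 19.2) and 4 (5.88%, 1.63 to 14.4), and these intervals overlapped. Of 20 immediate early and stress genes, 3 were higher and 4 lower, with a median of −0.08. Fosb (1896 and 461 CPM, −1.72), Fos (−1.04), Atf3 (1296 and 454 CPM, −1.19) and Btg2 (−1.20) fell, and the heat shock genes Hspb1 (54.7 and 300 CPM, 2.78) and Hspa1b (1160 and 1877 CPM, 1.02) rose. T cells had 788 and 118 CPM of Fosb and 49.8 and 313 CPM of Hspb1, the same directions. The part of cell dissociation in these genes was not tested.

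The 10 genes with the lowest relative log2 ratios (at least 100 UMIs in the gate and 10 in each library) lost UMIs in many cells. Alox5, which starts leukotriene synthesis, went from 123 to 10.7 CPM (−3.20, −4.22 to −2.33) and from 61.3% to 13.2% of cells. Ptgs1, the constitutive cyclooxygenase, went from 306 to 33 CPM (−2.89, −3.44 to −2.39) and from 69.4% to 25% of cells. Thinned, these shares were 17.3% and 3.03% for Alox5, against 0.207% and 0 of 244 T cells, and 41.8% and 10.6% for Ptgs1, against 0.826% and 0.410%. The next enzymes of these routes, named after their values were seen as belonging together, were also lower. Hpgds, the prostaglandin D synthase, had 544 and 173 CPM (−1.33, and −0.99 without the cells rich in RNA of other classes), and Ltc4s, the leukotriene C4 synthase, 332 and 99.0 CPM (−1.42). In the other dendritic gates Hpgds had 35.3 and 25.8 CPM and Ltc4s 17.7 and 16.1 CPM. Ptgs2 was thus the cyclooxygenase with the higher level in treated cells and Ptgs1 the one with the lower.

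The remaining 8 were Cd244 (90.5 and 9.71 CPM, −2.90), an immune receptor that binds Cd48, the phosphatase Ptpn6 (167 and 20.4 CPM, −2.71), Ffar2 (−2.71), a receptor for short-chain fatty acids, Rgs18 (−2.65), Il6ra (112 and 14.6 CPM, −2.62), the IL-6 receptor, Hsd17b4 (−2.59), Arhgap30 (−2.57) and Plekha5 (−2.57). In WT_LW each was found in 48.6% to 81.1% of cells and in TLR9agonist_LW in 13.2% to 25%. In the other dendritic gates pooled, each of these 8 was also lower in TLR9agonist_LW. They had 67.1 and 35.6 CPM of Ptpn6, 58.8 and 22.4 of Il6ra, 68.7 and 22.1 of Hsd17b4 and 112 and 65.7 of Arhgap30. Hsd17b4 was lower in keratinocytes (46.6 and 12.6 CPM) and T cells (19.7 and 5.72 CPM) too.

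The 10 genes with the highest ratios were more often carried by few cells. They were Serpinb2 (6.68 and 232 CPM, 5.44), Ptx3 (4.93), Inhba (9.11 and 184 CPM, 4.66), S100a9 (4.65), Cxcl3 (11.5 and 228 CPM, 4.63), S100a8 (4.53), Tnfaip6 (14.6 and 230 CPM, 4.30), Krt17 (4.05), Ccl2 and Thbs1 (3.94). In TLR9agonist_LW 1 cell gave 52.3% of the Serpinb2, 51.3% of the Ptx3, 54.0% of the Cxcl3 and 75.2% of the Krt17 UMIs. The alarmin genes S100a8 and S100a9 had 17.0 and 315 CPM and 19.4 and 389 CPM, below the 36.6 and 846 CPM and 40.9 and 846 CPM of T cells. Their thinned shares in treated cells (47.0% and 50%) lay below those of T cells (81.1% and 79.1%), and the part of free RNA in them was not tested. Inhba, a chain of activin A, had 90.6 CPM in treated fibroblasts and 67.4 in the other dendritic gates pooled, 36.7 in treated keratinocytes and 4.09 in treated T cells, and 13 of 68 treated Langerhans-like cells had a UMI of it. Thbs1 (16.4 and 201 CPM) had 540 CPM in treated fibroblasts. Others of these genes also stood higher in another gate than in the gated cells. Keratinocytes had 195 and 1325 CPM of Serpinb2 and 1530 and 2371 CPM of Krt17. Cxcl3 had 28.2 and 543 CPM in T cells. In fibroblasts Ptx3 had 131 and 544 CPM and Tnfaip6 741 and 795 CPM. The part of free RNA in these genes was not tested.

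RNA of other cell classes was higher in the treated gate. Of 15 counted keratinocyte markers, 14 were called higher, with a median of 2.46. The list's summed share was a median of 0.0530% of the UMIs of a cell in WT_LW (0 to 3.604) and 0.229% in TLR9agonist_LW (0.0979 to 4.85), and in T cells it was 0.101% and 0.507%. All 9 counted fibroblast markers were called higher, with a median of 2.03 and shares of 0.121% (0.0493 to 10.2) and 0.237% (0.116 to 10.7). Of 3 counted neutrophil and mast cell markers, S100a8 and S100a9 were higher, and Retnlg was at 0 in both libraries. Macrophage markers had 1 of 11 higher, 1 lower, a median of 0.19 and shares of 0.119% (0.00795 to 3.54) and 0.0769% (0.00866 to 2.30), with Folr2 and Chil3 at 0. Of 6 type 1 dendritic markers 1 was higher and 2 lower, with Clec9a at 0, and of 8 type 2 markers none was higher and 3 were lower. Il7r alone of the T and NK cell markers was counted (0.84). The cells in which keratinocyte, fibroblast or macrophage markers passed 1% of UMIs numbered 4 of 111 (3.60%, 0.990 to 8.97) and 14 of 68 (20.6%, 11.7 to 32.1). Without them 107 and 54 cells remained, and Ccr7 was at 2.27, Il1b at 3.63, Cd207 at 2.29, Epcam at −1.19, Cdh1 at −1.96 and Ptgs1 at −3.18, beside 2.01, 3.39, 2.02, −1.42, −1.88 and −2.89 in all the gated cells. The part of keratinocyte, fibroblast and neutrophil RNA in the other genes named with their levels in those gates was not tested.

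**Figure D5:**
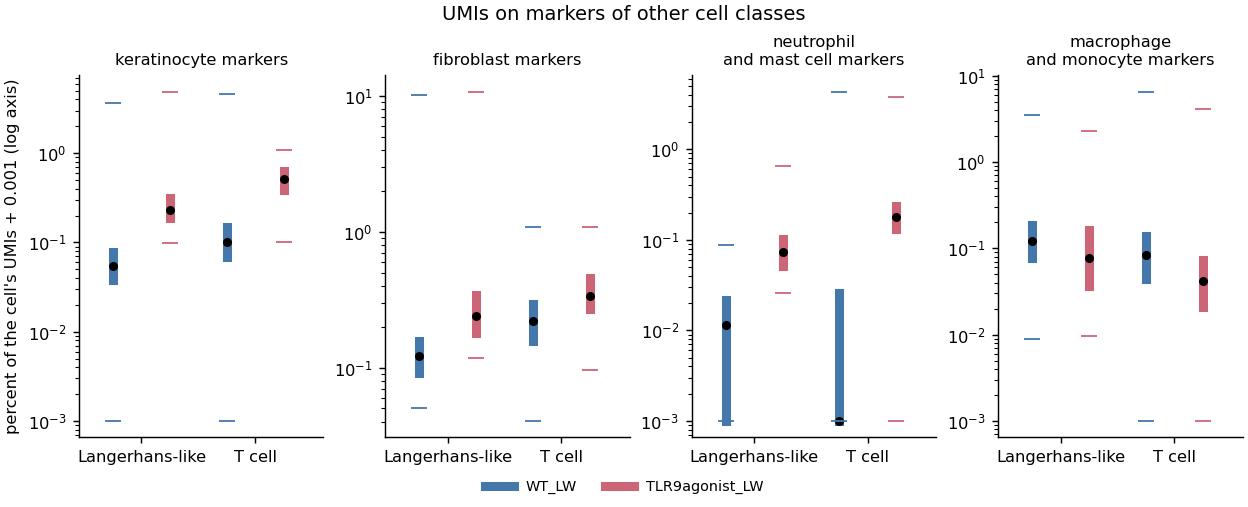
Percent of a cell's UMIs, plus 0.001 on a log axis, on 4 marker lists in Langerhans-like cells and in T cells of each library. Dots are medians, thick bars run from the lower to the upper quartile and ticks mark the lowest and highest cell. Keratinocyte and neutrophil markers are higher in TLR9agonist_LW in both cell types, with keratinocyte medians of 0.0530% and 0.229% in Langerhans-like cells.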

How the data were processed

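Single-cell RNA-seq (10x Genomics 3' chemistry, v2 or v3, not given per library) was made from 1 library per group. As deposited by the authors, the values are unnormalized UMI counts for every gene in every cell. The submitters' processing notes name mm9, fastp, Cell Ranger and Seurat, and the matrix headers name Cell Ranger 4.0.0. The deposited matrices held 12800 cells with 99374045 UMIs (WT_LW) and 13751 cells with 132339022 UMIs (TLR9agonist_LW), and 11443 and 13206 cells passed the filter. Among those, 39 cell barcodes were shared by both libraries, none of them Langerhans-like in both.

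The members, gene lists and named genes were chosen with earlier results of these data known. Gated cells of each library were summed gene by gene and scaled to CPM, and log2 ratios were centred on the median gene with at least 50 UMIs. Intervals are exact (Poisson for levels, Clopper-Pearson for shares, conditional binomial for ratios) at 95% and cover counting error only. With 1 library per group no test was run, and cells were not used as replicates. For shares of cells with a UMI, each cell was thinned to 2000 UMIs, which left out 1 and 2 gated cells. Other cell types were gated by their markers: fibroblasts by Col1a1 (at least 20 UMIs), keratinocytes by Krt5 and Krt14 (20), T cells by the Cd3 genes (4), and dendritic cells by Xcr1 and Clec9a, by Ccr7 and Fscn1, or by Cd209a.

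Named were genes of the 22 lists, the 10 highest and 10 lowest ratios between libraries and the 20 highest ratios over other dendritic gates. Clec7a was not analysed here. Some list genes that entered the counts are not reported here by name. Doublets were kept: the automatic threshold of Scrublet (scanpy 1.11.5) marked 1 and 0 cells and so had not worked. As an alternative, the highest scores (0.8% per 1000 cells) were removed, 1048 and 1395 cells, of which 11 and 15 were Langerhans-like. Other alternatives changed the cell filter, each part of the rule, the weighting of cells, the centring and the minimum UMIs. Leaving out cells with over 1% of UMIs on keratinocyte, fibroblast or macrophage markers was added after seeing the data. The scripts were tested on simulated data. Calculations used scipy 1.17.1 and pandas 2.3.3 with numpy 2.4.6 under Python 3.11.15, and plots matplotlib 3.10.9. Promoter sequences came from RefSeq on GRCm38.p6.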

Additional observations from a re-analysis of the deposited data

How the results depend on the processing

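No paired analysis was possible because each group has 1 library. Of the shares, gene counts and list medians, all 25 kept their direction and size under a stricter cell filter and when cells rich in keratinocyte RNA were left out. The causes of the moves below were not tested.

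The log2 ratio of the shares was −0.45 without the Epcam condition and −0.38 over H2-Aa cells. Genes higher and lower numbered 368 and 987 without centring, 92 and 74 after thinning, 1062 and 1079 with at least 20 UMIs, and 179 and 132 with at least 200. Without centring, the medians were −0.52 for Langerhans identity, −0.71 for MHC class II, −0.61 for MHC class I, 0.67 for NF-kB, 0.51 for transcription factors, 0.22 for uptake, −0.40 for immediate early, −0.13 for macrophage, 1.71 for fibroblast and 0.51 for T cell lists. After thinning they were −0.59 for Langerhans identity, 0.70 for NF-kB, 2.02 for Toll-like receptors, −0.41 for adhesion, 0.58 for chemokines, −0.88 for immediate early, 0.63 for T cell and 3.94 for neutrophil lists, and transcription factors turned to −0.10. Thinning and the limit of 200 UMIs left fewer counted genes, and very few in the Toll-like receptor and neutrophil lists. Such medians describe single genes, such as S100a9 for neutrophils after thinning, more than the lists. Without high doublet scores they were −0.15 for MHC class II, 0.52 for transcription factors, −0.61 for immediate early, 0.70 for macrophage, 1.33 for fibroblast and 1.01 for T cell lists. Without cells rich in RNA of other classes they were −0.15 for MHC class II, 0.46 for transcription factors, 0.51 for macrophage, 1.09 for fibroblast and 1.05 for T cell lists. With at least 200 UMIs they were 1.31 for Toll-like receptors, −0.25 for immediate early, −0.93 for type 1 dendritic, −0.14 for macrophage and 0.67 for T cell lists, and with at least 20 UMIs 0.83 for neutrophils. Without the Epcam condition chemokines stood at 0.56 and neutrophils at 2.75. With thresholds per 10000 UMIs, interferon stood at −0.82 and fibroblasts at 1.73. Keratinocytes stood at 1.96 with at least 4 Cd207 UMIs and 1.88 with no Cd3 UMI, where fibroblasts stood at 1.84. With equal weight per cell, immediate early genes stood at −0.23 and macrophages at 0.84.

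Of the single genes, Cxcl10 turned to −0.30 without high doublet scores and −0.64 without RNA of other classes, Irf1 to −0.20 and Maf to −0.29 without high doublet scores, and Ccl9 to 0.45 without the Epcam condition. Ccr7 stayed between 1.67 and 2.31 and Il1b between 2.58 and 3.71. Over all counted genes, the 95% interval reached a median of 0.58 to either side on the log2 scale, so depth limits single genes with few UMIs.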
